A study of Mus musculus with 40 samples.

Results

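The 20 libraries described here are the myometrium libraries of a mouse RNA-seq series, 10 from animals given human chorionic gonadotropin (hCG) and 10 from animals given phosphate-buffered saline (PBS), out of 40 libraries in all. They were chosen by tissue and treatment as the labels give them, without use of any measured value. All groups came from pregnant mice of the inbred strain C57BL/6 at 18.5 days post coitum, close to term, and both agents were injected intraperitoneally. The other 20 libraries are cervix, with 10 hCG and 10 PBS libraries. Neither the dose of hCG, nor the number of injections, nor the interval before collection is given in the sources used here. The design text gives 10 mice per treatment, but nothing says which libraries share an animal, so p-values measure the spread between libraries. The question was how hCG changes the transcriptome of the uterine muscle late in pregnancy.

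hCG is the hormone of the human placenta that keeps the corpus luteum making progesterone. It binds the luteinizing hormone receptor, encoded by Lhcgr, which signals mainly through cyclic AMP. Mice make no chorionic gonadotropin, and their pregnancy depends on ovarian progesterone until term. Myometrium is the smooth muscle wall of the uterus: progesterone keeps it quiet, and near term a fall in progesterone action and rising estrogen action raise the oxytocin receptor, the gap junction protein connexin 43 and prostaglandin signalling, which together allow coordinated contraction.

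Smooth muscle genes were abundant in every library, and in some of them genes of neighbouring tissues stood high. The 9 smooth muscle markers summed to 11550 to 25280 CPM (counts scaled to library size) in hCG libraries and 12770 to 28240 CPM in PBS libraries. Yolk sac and fetal liver markers, 18 in number, summed to 867 to 40370 CPM in hCG libraries and 888 to 25880 CPM in PBS libraries, and alpha-fetoprotein (Afp), the defining gene of that list, exceeded 3000 CPM in hCG libraries 1, 3, 5, 7 and 10 and in PBS libraries 4, 8 and R3. Ovary markers had medians of 94.6 CPM in hCG and 83.3 CPM in PBS libraries. They stood at 3085 CPM in hCG library 5, 1197 CPM in hCG library 10, 1581 CPM in PBS library 4 and 861 CPM in PBS library 8. Decidual markers had medians of 218 CPM in hCG and 212 CPM in PBS libraries and reached 1508 CPM in hCG library 1. There the single gene Prl8a2 held 1285 CPM, so that sum does not by itself show decidual tissue. Among PBS libraries the ovary markers Hsd3b1 and Cyp11a1 reached 1204 and 345.5 CPM. Star, Cyp17a1, Inha and Lhcgr there reached no more than 41.6, 4.68, 1.5 and 0.299 CPM. Lhcgr was high (67.3 CPM) only in hCG library 5. A high ovary sum in another library therefore does not by itself show ovary tissue, and its source was not tested. Trophoblast markers had a median of 36.5 CPM (1.92 to 414) in hCG libraries and 4.34 CPM (1.27 to 248) in PBS libraries. Total counts were 5449239 to 20603741 in hCG libraries and 5933199 to 20108002 in PBS libraries, so that 3 counts corresponded to 0.144 to 0.582 CPM in hCG and 0.147 to 0.505 CPM in PBS libraries. Long noncoding RNA genes (lncRNA) took 1.98 to 4.54% of counts in hCG libraries and 2.37 to 6.3% in PBS libraries. The lncRNA gene Malat1 alone averaged 22110 CPM in hCG and 30750 CPM in PBS libraries, so it held much of this share. The part of these other tissues and of the lncRNA share in the results was not tested beyond the fits given below. In whole tissue, fewer cells of a type and less RNA per cell cannot be told apart.

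**Figure D1:**
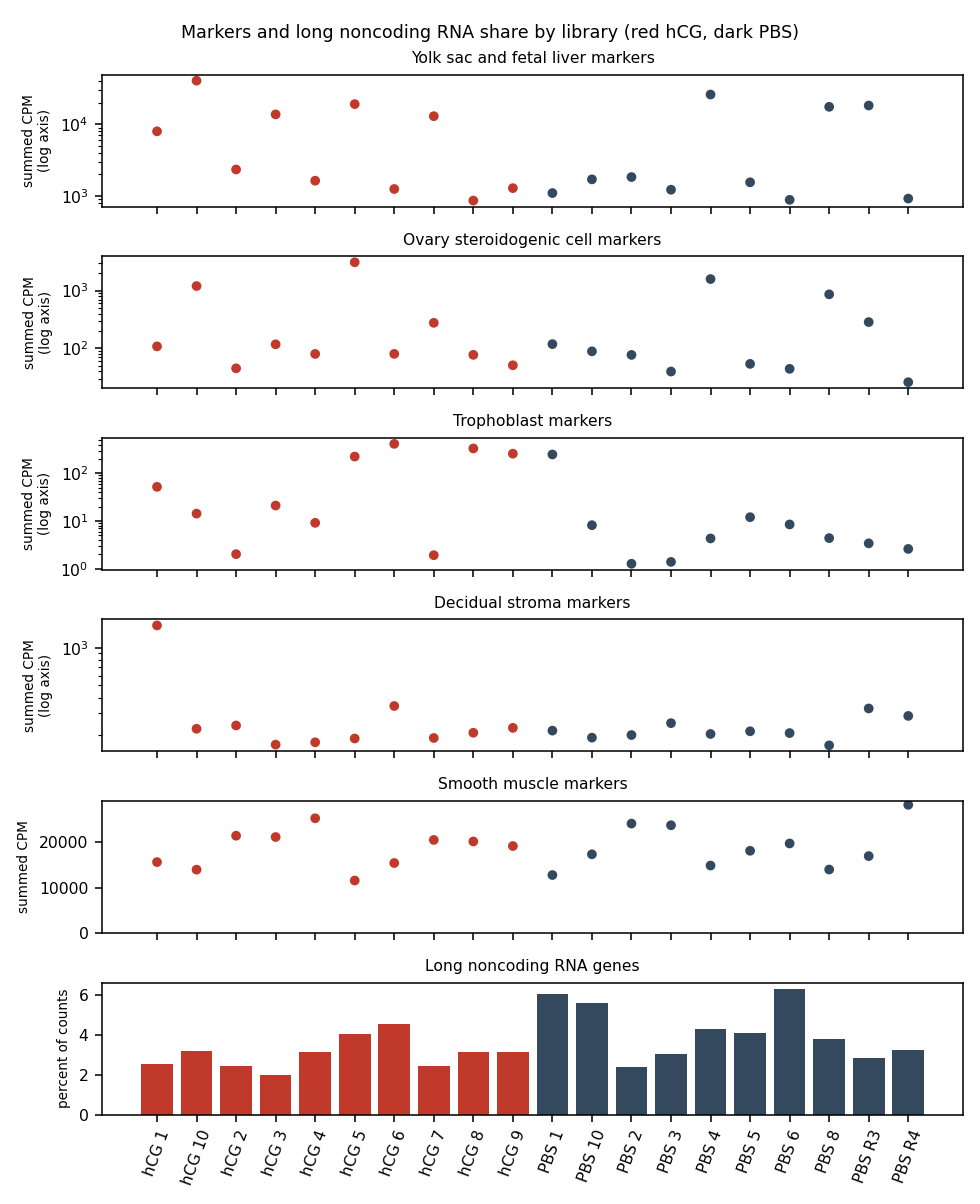
Summed level of 5 marker lists in CPM (log axes, except smooth muscle) and the percent of counts from lncRNA genes, 1 point or bar per myometrium library, hCG in red on the left and PBS in dark on the right. Yolk sac markers were high in 5 hCG and 3 PBS libraries, ovary markers highest in hCG library 5 and decidual markers in hCG library 1. That decidual sum came mostly from the single gene Prl8a2 (1285 CPM).

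Genome-wide, the difference between hCG and PBS myometrium was small relative to the spread between libraries. Of 14517 genes tested, 2 passed edgeR's quasi-likelihood test at a Benjamini-Hochberg adjusted p under 0.05, which is 0.0138% of the genes tested. The carboxylesterase gene Ces1d was higher in hCG myometrium, and the mitochondrial carrier gene Slc25a48 was lower. At the looser adjusted p under 0.1, 161 genes passed (1.11%), of which 40 were higher (0.276%) and 121 lower (0.834%) in hCG myometrium. At an unadjusted p under 0.05 there were 2254 genes (15.5%), of which 931 were higher (6.41%) and 1323 lower (9.11%). DESeq2, run on the same counts, called 400 of 16743 genes tested at an adjusted p under 0.05. Of these 91 were higher and 309 lower, and both genes called by edgeR were among the 400. The median log2 fold change over all tested genes was 0.008.

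Single libraries moved the count of called genes. Leaving out PBS library 2 gave 137 called genes and leaving out PBS library 3 gave 90. Without PBS library R3 there were 25, without hCG library 9 there were 8 and without PBS library 5 there were 6. Leaving out hCG library 2 or PBS library 4 gave 3 each, and leaving out any 1 of hCG libraries 1, 3, 5, 7 and 8 or PBS libraries 1, 6, 8, 10 and R4 gave 1. Without the 8 libraries of high Afp, no gene passed edgeR's test, with 1098 genes at an unadjusted p under 0.05, and without hCG libraries 1 and 5 again none passed, with 1827 genes at an unadjusted p under 0.05.

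**Figure D2:**
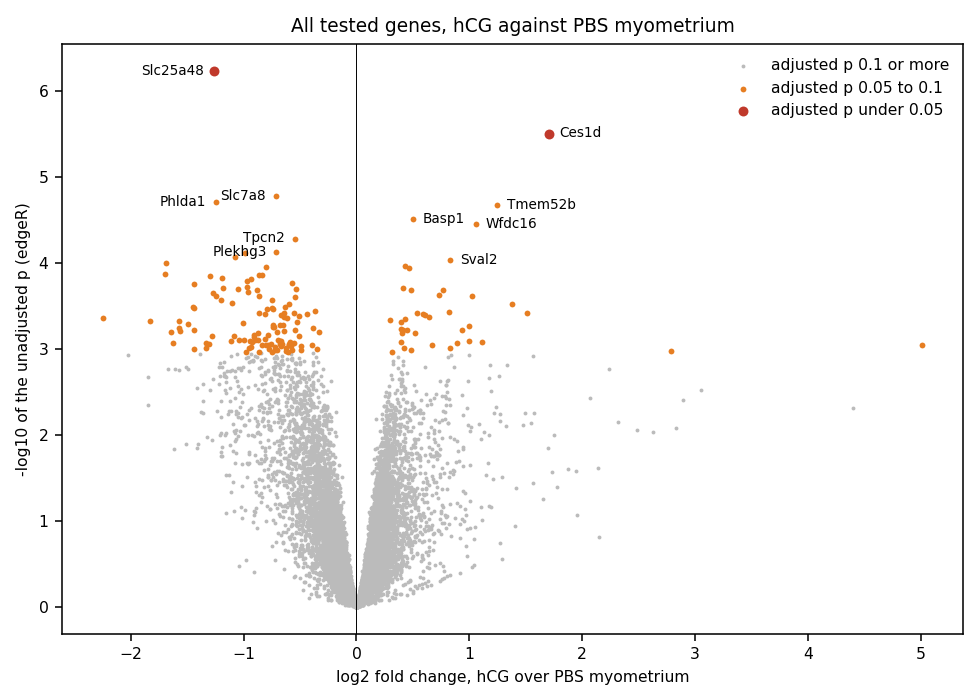
Log2 fold change of hCG over PBS myometrium against -log10 of the unadjusted edgeR p for each of the 14517 tested genes, coloured by adjusted p, with the 5 genes of smallest p in each direction named. Slc25a48 and Ces1d stand above the rest, and of the 161 genes at an adjusted p under 0.1, 121 lie on the lower side.

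Slc25a48 encodes a carrier protein of the mitochondrial inner membrane that takes part in choline import. The gene lies on the plus strand of chromosome 13 (GRCm38.p6, 56437960 to 56472367). Its level was 1.54 CPM in the lowest, 2.29 CPM in the median and 3.26 CPM in the highest hCG library, against 3.80, 5.37 and 8.17 CPM in PBS libraries. Every hCG library lay below every PBS library. Slc25a48 was the only one of the 14517 tested genes whose groups did not overlap (0.00689%). Its log2 fold change was -1.26 (SE 0.18, edgeR adjusted p = 0.00854). The call held with each library left out in turn (adjusted p at most 0.026), and was lost without the 8 libraries of high Afp (log2 fold change -1.07, adjusted p = 0.662), where 12 libraries remained, and without hCG libraries 1 and 5 (-1.26, adjusted p = 0.0721). It was also lost in limma voom with library quality weights (adjusted p = 0.0522), in a fit of all 40 libraries (0.204) and with the lncRNA share as a covariate (0.0906). A fit with the label number as a replicate block lost it too, as the closing section gives.

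The 250 bases before the RefSeq start of Slc25a48 are shown because this gene carried the clearest difference, with capitals marking the GC box GGGCGG on either strand. The stretch is chr13:56438105-56438354 of GRCm38.p6, plus strand, read 5′ to 3′, and lies inside the gene's full annotated span because the table's start site is not the most upstream one.
Slc25a48 promoter: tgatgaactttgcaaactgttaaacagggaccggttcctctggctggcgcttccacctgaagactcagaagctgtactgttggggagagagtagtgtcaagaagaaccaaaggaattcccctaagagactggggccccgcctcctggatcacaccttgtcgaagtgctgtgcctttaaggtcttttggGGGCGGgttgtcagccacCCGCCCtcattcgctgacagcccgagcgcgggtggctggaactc
The GC content was 56.4%. The GC box was present 2 times, and 32.7% of 32851 promoter stretches of that length hold at least 1. The cyclic AMP response element TGACGTCA, its core TGACG, the palindromic estrogen response element and the palindromic progesterone and glucocorticoid response element had 0 matches on either strand in this window, and are held by 1.55%, 17.8%, 0.0639% and 0.387% of the stretches in that order; each match of the first also contains the second.

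Ces1d, on chromosome 8 (93166072 to 93197804), encodes a carboxylesterase of the endoplasmic reticulum that hydrolyses triglycerides and drug esters. It was at 3.5 CPM in the lowest, 16.2 CPM in the median and 19.7 CPM in the highest hCG library, against 1.96, 4.14 and 6.68 CPM in PBS libraries. The hCG libraries fell into a higher and a lower set in the plot of levels by library, and 9 of 10 exceeded the PBS median. The fold change was 3.27 (log2 1.71, SE 0.28, adjusted p = 0.023). The call was lost when any 1 of 10 libraries was left out, with adjusted p up to 0.0791 and log2 fold changes between 1.62 and 1.82 over all 20 such fits. Without the 8 libraries of high Afp the log2 fold change was 1.44 (adjusted p = 0.662). The call was also lost in limma voom (adjusted p = 0.219), with the lncRNA share as a covariate (0.295), without hCG libraries 1 and 5 (0.136) and without the 3 libraries with over 1% of counts from Lars2 (0.0515). The replicate block of the closing section lost the Ces1d call as well. Ces1e, the adjacent gene of the same family (93201218 to 93229631), named after its values were seen, averaged 4.81 ± 1.78 CPM in hCG and 2.37 ± 1.07 CPM in PBS libraries (log2 0.99, SE 0.25, adjusted p = 0.0972). Another carboxylesterase gene of chromosome 8, Ces2b, had a mean of 103 ± 41.2 CPM in hCG and 50.6 ± 18 CPM in PBS libraries (SD, n = 10 each; log2 1.03, adjusted p = 0.0917). Carboxylesterase genes of this chromosome are close copies of each other, and the authors' counting could have split or shared their reads.

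**Figure D3:**
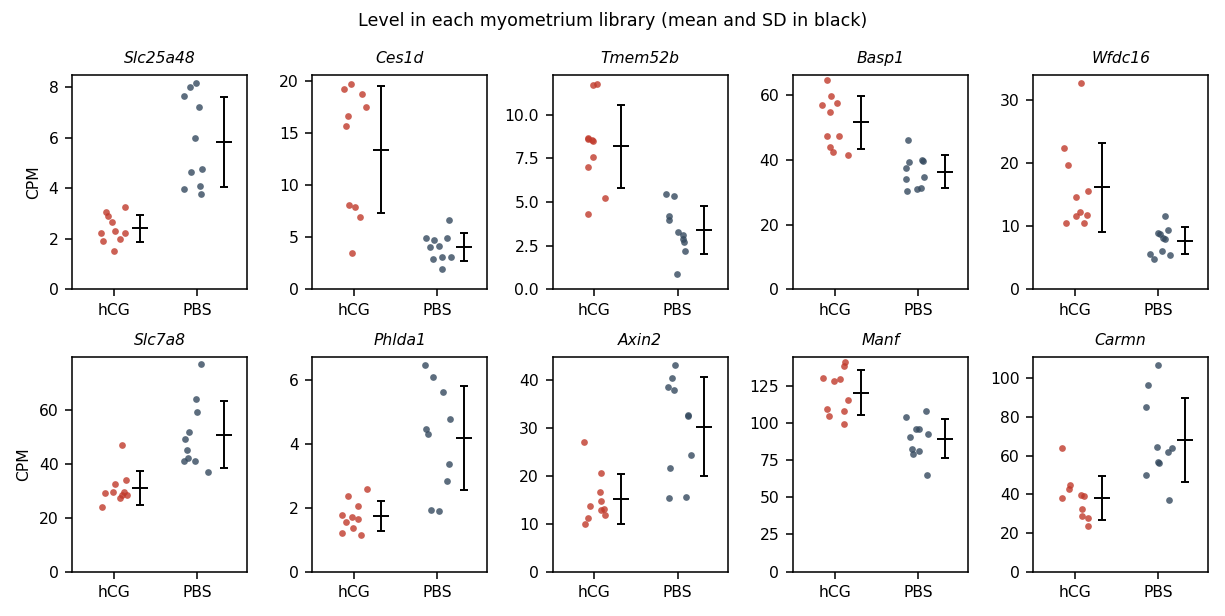
Level in CPM of 10 genes in each myometrium library, hCG (red) left of PBS (dark), with mean and SD in black. Slc25a48 is the only 1 of these with no overlap between the groups, and Ces1d shows a lower and a higher set of hCG libraries.

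The 12 higher and 12 lower genes of smallest p include the 2 that passed and 22 that did not, with adjusted p between 0.0619 and 0.0917. DESeq2 called all 24. All 24 kept their direction in DESeq2, under every other setting tried and with each library left out in turn. Because they were picked by their p in this comparison, their values are a description.

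Among the higher genes, Manf, a secreted protein induced by endoplasmic reticulum stress, was at 99 CPM in the lowest, 122 CPM in the median and 141 CPM in the highest hCG library, against 65, 91.6 and 108 CPM in PBS libraries (log2 0.43, SE 0.09, adjusted p = 0.0917). Scarb2, the lysosomal membrane protein that carries glucocerebrosidase to lysosomes, averaged 132 ± 16 CPM in hCG and 99.2 ± 15.1 CPM in PBS libraries. Gabarapl1, an ATG8-family protein of autophagosome membranes, averaged 308 ± 34.9 CPM in hCG and 220 ± 44.6 CPM in PBS libraries. For these 3 genes the ranges overlapped, and all 10 hCG libraries exceeded the PBS median. Mrpl35, a protein of the large mitochondrial ribosome subunit, differed by a log2 fold change of 0.47 and Basp1, a membrane-associated signalling protein, by 0.5. The steepest after Ces1d was Tmem52b, a membrane protein gene, at 4.33, 8.51 and 11.7 CPM in the lowest, median and highest hCG library, against 0.907, 3.2 and 5.45 CPM in PBS libraries (log2 1.25, SE 0.23, adjusted p = 0.0619). Wfdc16, of the whey acidic protein family of protease inhibitors, had a log2 fold change of 1.06, Sval2 0.83, Prr15 0.77 and Pamr1 0.73. None of these passed edgeR's test.

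Among the lower genes, Axin2, a scaffold of the beta-catenin destruction complex and a standard Wnt target, was at 9.96, 13.4 and 27 CPM in the lowest, median and highest hCG library, against 15.3, 32.6 and 43.2 CPM in PBS libraries (log2 -0.99, SE 0.21, adjusted p = 0.0917). Carmn, the long noncoding host transcript of microRNAs 143 and 145 and a marker of smooth muscle, averaged 38.1 ± 11.5 CPM in hCG and 68 ± 21.8 CPM in PBS libraries (log2 -0.83). Mir145a, the precursor of a smooth muscle microRNA that lies within Carmn, averaged 0.778 ± 0.37 CPM in hCG and 1.86 ± 0.632 CPM in PBS libraries (log2 -1.19). The reads of these overlapping genes cannot be told apart, so they are not 2 separate measurements. Slc7a8, a transporter of neutral amino acids, was at 24.1, 29.3 and 47.1 CPM in hCG libraries, against 36.9, 47.2 and 77 CPM in PBS libraries (lowest, median and highest; log2 -0.72, SE 0.13, adjusted p = 0.0619). All 10 hCG libraries were below the PBS median for Axin2, Mir145a and Slc7a8, and 9 of 10 for Carmn. The other lower genes were Phlda1 (log2 -1.25), a pleckstrin homology-like protein, Nos1ap (-1.30), an adaptor of neuronal nitric oxide synthase, Fam110b (-1.07), Fbrs (-0.86), Pcgf2 (-0.80), a Polycomb repressive complex subunit, Plekhg3 (-0.71), an exchange factor for small GTPases, and Tpcn2 (-0.55), a cation channel of endolysosomes. None of the genes in this group passed edgeR's test.

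lncRNA genes lay to the lower side in hCG myometrium. Of 529 tested lncRNA genes, 99 (18.7%) were lower and 13 (2.46%) higher at an unadjusted p under 0.05, with a median log2 fold change of -0.141. Of 13790 protein-coding genes, 8.62% were lower and 6.64% higher, with a median of 0.013. At an adjusted p under 0.1, 17 of the 529 lncRNA genes were lower and 0 higher. Of the 13790 protein-coding genes 100 were lower and 40 higher, and of all tested genes 0.834% were lower and 0.276% higher. The lncRNA share of counts was highest in PBS libraries 1, 6 and 10, and differs between libraries of 1 group as well. Malat1 held much of that share, so it does not weigh all lncRNA genes alike. With that share as a covariate, an alternative added after seeing the data, the median of lncRNA genes was -0.023, 5.67% were lower against 3.82% of all genes, and no gene passed edgeR's test (1133 at an unadjusted p under 0.05). The share is itself made of lncRNA counts, and its medians were 3.13% in hCG and 3.94% in PBS libraries. The fit can therefore take out part of a treatment difference. Losses in it, here and elsewhere, cannot tell a treatment difference from a difference between libraries.

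A panel of 26 genes known from labour and from late pregnancy had 24 tested members, none of which passed; 5 were higher and 6 lower at an unadjusted p under 0.05 (20.8% and 25%). DESeq2 called 2 of them, the progesterone receptor Pgr and the natriuretic peptide gene Nppc, both lower. The oxytocin receptor and connexin 43 had lower means in hCG myometrium.

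Oxtr, the oxytocin receptor, was at 39.8, 65.5 and 101 CPM in the lowest, median and highest hCG library, against 37.8, 91.1 and 366 CPM in PBS libraries. The ranges overlapped, and the spread was much wider in PBS libraries, whose mean was 141 ± 119 CPM against 67.1 ± 21.8 CPM in hCG libraries (SD, n = 10 each). Its log2 fold change was -1.07 (SE 0.41, adjusted p = 0.198). Gja1, which encodes connexin 43, averaged 242 ± 111 CPM in hCG and 418 ± 265 CPM in PBS libraries (log2 -0.79, SE 0.33, adjusted p = 0.242). With the lncRNA share as a covariate the Oxtr value was -0.66 (adjusted p = 0.724). Over the other settings and left-out libraries neither gene passed, with adjusted p of at least 0.128 for Oxtr and 0.136 for Gja1.

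Among the prostaglandin receptors, Ptgfr, the contractile receptor of prostaglandin F2alpha, was at 2.68, 5.46 and 102 CPM in the lowest, median and highest hCG library, against 1.88, 3.97 and 4.58 CPM in PBS libraries. The highest value came from hCG library 5, which also had the highest sum of ovary markers. The log2 fold change was 2.07 (SE 0.63, adjusted p = 0.128), and 0.61 (adjusted p = 0.19) without that library; it was 0.58 in DESeq2 (adjusted p = 0.149). Ptger2 and Ptger4, the relaxing prostaglandin E2 receptors that signal through cyclic AMP, had log2 fold changes of 0.66 (adjusted p = 0.134) and 0.33 (adjusted p = 0.149). Ptger2 averaged 7.61 ± 2.97 CPM in hCG and 4.82 ± 1.43 CPM in PBS libraries. Ptger3, a receptor linked to inhibitory G proteins, had a log2 fold change of 0.04, whose sign changed under other settings. For prostaglandin synthesis, Ptgs2, the inducible cyclooxygenase, averaged 12.6 ± 6.18 CPM in hCG and 7.66 ± 3.65 CPM in PBS libraries (log2 0.72, adjusted p = 0.181). Pla2g4a, which releases arachidonic acid, had a log2 fold change of 0.43 (adjusted p = 0.136), and Hpgd, which inactivates prostaglandins, 0.38 (adjusted p = 0.186). The constitutive Ptgs1 stood at 0.14 (adjusted p = 0.651).

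Of the steroid genes, Pgr was at 226, 283 and 458 CPM in the lowest, median and highest hCG library, against 276, 424 and 747 CPM in PBS libraries. The ranges overlapped and 8 of 10 hCG libraries were below the PBS median. Its log2 fold change was -0.59 (SE 0.18, adjusted p = 0.117), and DESeq2 gave -0.60 (adjusted p = 0.0461). The estrogen receptor Esr1 stood at -0.21 (adjusted p = 0.493). Akr1c18, the enzyme that converts progesterone to an inactive form, averaged 1571 ± 569 CPM in hCG and 1418 ± 630 CPM in PBS libraries (log2 0.15, adjusted p = 0.822). Srd5a1, a steroid reductase that also inactivates progesterone, stood at 0.04, a value whose sign changed under other settings. Nppc, the precursor of C-type natriuretic peptide, averaged 0.988 ± 0.313 CPM in hCG and 3.56 ± 3.84 CPM in PBS libraries (log2 -1.83, SE 0.45, adjusted p = 0.0957), and all 10 hCG libraries were below the PBS median.

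The muscle genes themselves differed little in mean. Acta2, smooth muscle actin, averaged 4299 ± 924 CPM in hCG and 4213 ± 1238 CPM in PBS libraries, and Myh11, smooth muscle myosin heavy chain, 4648 ± 1513 CPM in hCG and 5183 ± 1514 CPM in PBS libraries (log2 0.03 and -0.16, adjusted p = 0.966 and 0.799; the Acta2 sign changed under other settings). Kcnma1, the large-conductance calcium-activated potassium channel, stood at -0.43 (adjusted p = 0.206), and Has2, a hyaluronan synthase, at -0.37 (adjusted p = 0.304). The transcriptional repressors Zeb1 and Zeb2, the cytokines Il1b and Cxcl1, the vasoconstrictor peptide gene Edn1 and the gelatinase gene Mmp9 had adjusted p between 0.535 and 0.968, and log2 fold changes between -0.65 (Cxcl1) and 0.41 (Il1b). The signs of all 6 changed under at least 1 other setting or left-out library.

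The receptor for hCG itself, Lhcgr, was too low for testing outside a single library. It stood at 67.3 CPM in hCG library 5, at most 0.222 CPM in the other hCG libraries and at most 0.299 CPM in PBS libraries, and 6 hCG and 4 PBS libraries had no count. A library without a count could still hold up to 0.582 CPM of it among hCG libraries and 0.505 CPM among PBS libraries, counting error only. Il6 was also below the filter.

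**Figure D4:**
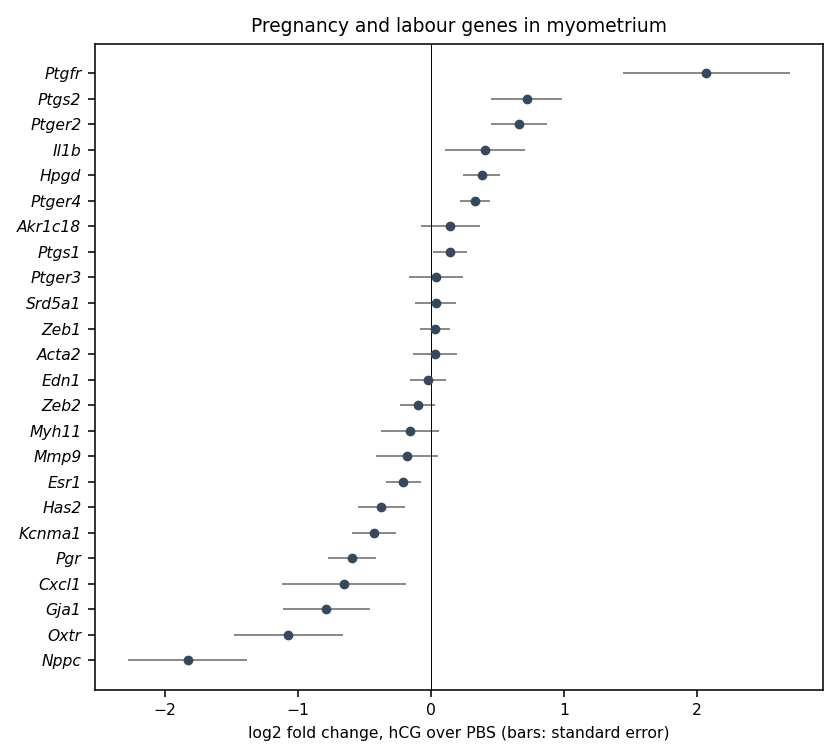
Log2 fold change of hCG over PBS myometrium for the 24 tested panel genes, with bars of 1 standard error. Ptgfr at 2.07 and Nppc at -1.83 lie farthest out, and none of the 24 passed edgeR's test.

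The gene lists were chosen with earlier results of these data known. A share above the background is therefore a description and no independent support. Of 27 lists of genes of biological processes, no list had a member past an adjusted p of 0.05 in edgeR's test. Counts at an unadjusted p under 0.05 are therefore set beside the 6.41% of all tested genes that were higher and the 9.11% that were lower. Other fits had other backgrounds, beside which their list counts are to be read. With the lncRNA share as a covariate 578 genes were higher and 555 lower of 14517 tested. Without the 8 libraries of high Afp 371 were higher and 727 lower of 14847. Without the 3 Lars2 libraries 808 were higher and 1460 lower of 14689. The fit of all 40 libraries had 579 higher and 1012 lower of 15624, and limma voom 780 and 1057 of 14517.

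Of 9 tested oxytocin and prostaglandin receptor genes, 4 were higher (44.4%) and 1 lower (11.1%). In the fit of all 40 libraries 2 of them were higher and 1 lower. The highest share for a list of more than 10 genes was that of heat shock and the unfolded protein response, the set of chaperones and folding enzymes that cells raise when protein folding in the endoplasmic reticulum is strained. All 31 members were tested, and 13 were higher (41.9%) and 1 lower (3.23%), with a median log2 fold change of 0.254. The 13 were mainly residents of the endoplasmic reticulum: Manf, the co-chaperones Dnajb9, Dnajc3 and Sdf2l1, the disulfide isomerases Pdia3, Pdia4 and Pdia6, the chaperones Hspa5, Hsp90b1, Calr and Canx, and the mitochondrial chaperonins Hspd1 and Hspe1. The lower gene was Bag3, a cytosolic co-chaperone. Dnajb9 averaged 79.5 ± 11.7 CPM in hCG and 61.3 ± 10.4 CPM in PBS libraries (log2 0.37, SE 0.10, adjusted p = 0.1), and Pdia6 327 ± 49.2 CPM in hCG and 256 ± 48.6 CPM in PBS libraries (log2 0.35, SE 0.11, adjusted p = 0.136). The count of higher members was 4, with a median of 0.121, with the lncRNA share as a covariate, where 578 of all tested genes were higher; it was also 4, with a median of 0.146, without the 8 libraries of high Afp, where 371 were. It was 9 without hCG libraries 1 and 5, where 613 were.

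Genes that estrogen is known to raise in uterus lay to the lower side. Of 25 tested, 6 were lower (24%) and 0 higher, with a median of -0.244: Oxtr, Gja1 and Pgr, described above, Inhbb, the inhibin beta B subunit, Muc4, an epithelial mucin, and the estrogen receptor cofactor Greb1. Inhbb was at 86.7, 138 and 331 CPM in the lowest, median and highest hCG library, against 102, 372 and 485 CPM in PBS libraries (log2 -0.95, adjusted p = 0.136). All 10 hCG libraries were below the PBS median for Inhbb, although the ranges overlapped. Muc4 averaged 16.4 ± 14.7 CPM in hCG and 40.2 ± 30.2 CPM in PBS libraries (log2 -1.28, adjusted p = 0.171). The count of lower members was 2 with the lncRNA share as a covariate, where 555 genes of all were lower, and 4 without the 8 libraries of high Afp, where 727 were. Of the 21 tested steroid receptors and cofactors, 5 were lower (23.8%) and 0 higher, among the lower ones Pgr, Foxo1 and Ncoa1; with the lncRNA share as a covariate 1 was lower. Foxo1, a forkhead factor that works with the progesterone receptor, had a log2 fold change of -0.61 (adjusted p = 0.105). Of 23 tested progesterone-responsive genes, 5 were higher (21.7%) and 1 lower (4.35%), led by Cyp26a1, which breaks down retinoic acid (log2 0.86, adjusted p = 0.102), and Klf9, a cofactor of the progesterone receptor (0.29, adjusted p = 0.122); the lower one was Foxo1. Without the 8 libraries of high Afp 1 was higher and 1 lower, without the Lars2 libraries 2 were higher and 1 lower, and in the fit of all 40 libraries 0 were higher and 1 lower.

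Ion channels of uterine muscle also lay lower: 8 of 35 tested (22.9%) were lower and 0 higher, with a median of -0.072. Cacna1c, the pore subunit of the L-type calcium channel that carries calcium into contracting muscle, was at 59.7, 84.1 and 144 CPM in the lowest, median and highest hCG library, against 71.8, 132 and 203 CPM in PBS libraries (log2 -0.65, SE 0.16, adjusted p = 0.0972). The T-type calcium channel gene Cacna1g had a log2 fold change of -0.61 (adjusted p = 0.136). Others among the 8 were Trpc6, Trpv4, Kcnma1, Cacna1h and Cacnb2. With the lncRNA share as a covariate 3 were lower and 1 higher, without the 8 libraries of high Afp 5 were lower, and in the fit of all 40 libraries 2 were. Of 34 tested contractile genes, 2 were lower (5.88%) and 0 higher, the serum response factor coactivators Mrtfb (log2 -0.33, adjusted p = 0.179) and Mrtfa (-0.47, adjusted p = 0.196).

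Immediate early genes, which answer many stimuli within minutes to hours, and genes induced by cyclic AMP did not lie to the higher side. Of 28 tested immediate early genes, 6 were lower (21.4%) and 0 higher, with a median of -0.131, and of 29 cyclic AMP-induced genes 6 were lower (20.7%) and 2 higher (6.9%), with a median of -0.115. With the lncRNA share as a covariate 2 immediate early genes were lower, and 3 cyclic AMP-induced genes were lower and 3 higher; limma voom also gave 2 lower immediate early genes. Fosb, an AP-1 subunit, was at 0.997, 2.16 and 6.42 CPM in the lowest, median and highest hCG library, against 2.43, 4.17 and 43.3 CPM in PBS libraries (log2 -2.02, SE 0.54, adjusted p = 0.1), and -1.23 in DESeq2 (adjusted p = 0.046). Egr1, a zinc finger factor, averaged 8.23 ± 4.32 CPM in hCG and 18.9 ± 16.9 CPM in PBS libraries (log2 -1.20, adjusted p = 0.159). Pde4d, a phosphodiesterase that degrades cyclic AMP and is itself induced by it, had a log2 fold change of -0.47 (adjusted p = 0.106).

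Of the 17 tested steroid synthesis genes, 4 were higher (23.5%) and 2 lower (11.8%), and without the 8 libraries of high Afp 0 were on either side. Star, which carries cholesterol into mitochondria, and Hsd17b7, an enzyme of luteal estrogen synthesis, were at 710 and 703 CPM in hCG library 5, against hCG medians of 18.4 and 14.6 CPM and PBS medians of 22.9 and 15.1 CPM. Their log2 fold changes of 1.94 and 2.49 became -0.40 and -0.04 without that library. Cyp17a1, the enzyme of androgen synthesis, did not depend on it alone: it was at 0.842, 5.24 and 10.9 CPM in the lowest, median and highest hCG library, against 0.492, 1.83 and 4.68 CPM in PBS libraries (log2 1.57, SE 0.42, adjusted p = 0.1). Prl8a2, a decidual prolactin, reached 1285 CPM in hCG library 1, and its log2 fold change of 4.40 was 1.62 without that library. Apoa2, an apolipoprotein of yolk sac and liver, had a log2 fold change of 2.79 (adjusted p = 0.0981) and 0.53 without the 8 libraries of high Afp.

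In the Wnt pathway, which patterns the uterus and its muscle layers, 4 of 24 tested genes were higher (16.7%) and 6 lower (25%). The lower ones were Axin2, the DNA-binding partners of beta-catenin Tcf7l2 and Tcf7l1, the feedback inhibitor Znrf3 and the receptor genes Fzd7 and Lrp5. The higher ones were Dkk3 and Sfrp4, of secreted Wnt inhibitor families, the agonist Rspo3 and Ctnnb1, beta-catenin itself. Tcf7l2 averaged 10.9 ± 1.2 CPM in hCG and 17.5 ± 7.14 CPM in PBS libraries (log2 -0.68, adjusted p = 0.0975), and Dkk3 40.8 ± 9.8 CPM in hCG and 26.1 ± 6.59 CPM in PBS libraries (log2 0.64, adjusted p = 0.094). With the lncRNA share as a covariate 3 genes of the list were higher and 1 lower. In the list of TGF-beta, activin and BMP genes 4 of 33 were higher (12.1%) and 5 lower (15.2%), among the lower ones Inhbb and the type I receptor Acvr1 (log2 -0.38, adjusted p = 0.152); with that covariate 1 was higher and 1 lower, and without the 8 libraries of high Afp 0 and 2.

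The joint list of matrix proteases and their inhibitors lay to the higher side, with 6 of 28 tested higher (21.4%) and 1 lower (3.57%), and a median of 0.191. Mmp3, stromelysin 1, was at 2.37, 7.84 and 17.6 CPM in the lowest, median and highest hCG library, against 1.42, 2.88 and 7.27 CPM in PBS libraries (log2 1.38, SE 0.32, adjusted p = 0.094). Ctsl, cathepsin L, averaged 918 ± 131 CPM in hCG and 642 ± 156 CPM in PBS libraries (log2 0.52, adjusted p = 0.0973). Both overlapped between the groups, with 9 and 10 of 10 hCG libraries above the PBS median. The lower gene was the aggrecanase Adamts4 (log2 -0.72, adjusted p = 0.0976). Of 38 fibrillar matrix genes 6 were higher (15.8%) and 2 lower (5.26%), led by Thbs2, a thrombospondin (log2 0.74, adjusted p = 0.109). Without the 8 libraries of high Afp, 2 genes of the protease and inhibitor list and 0 fibrillar matrix genes were higher. Without the Lars2 libraries 2 fibrillar matrix genes were higher and 3 lower.

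Of 25 tested glucocorticoid-responsive genes 4 were higher (16%) and 2 lower (8%), the higher ones being Klf9, Cebpd, Sgk1 and Tsc22d3 and the lower ones Per1 and Mertk; without the 8 libraries of high Afp 0 were higher and 1 lower. Immune lists had 0 to 3 members on either side: 3 of 21 antigen presentation genes were higher (14.3%, and 0 with the lncRNA share as a covariate), led by the class II gene H2-Aa (log2 0.45, adjusted p = 0.147), and 2 of 33 type I interferon genes were higher and 2 lower (6.06% each). Of 22 inflammatory cytokines and chemokines 1 was higher (4.55%), and of the 38 on the list 16 were not tested, all but Ccl21a, which was not matched, because of low counts. Of 4 tested neutrophil markers 2 had log2 fold changes above 0, S100a8 at 1.33 (adjusted p = 0.15) and S100a9 at 1.18 (adjusted p = 0.164), and 2 below, Csf3r at -0.06 and Cxcr2 at -0.09; the summed markers had medians of 18.7 CPM in hCG and 18 CPM in PBS libraries. In that sum Cxcr2 reached 101.6 CPM in hCG and 128.1 CPM in PBS libraries, while S100a8 reached 5.22 CPM and 2.5 CPM. The similar medians therefore do not show equal neutrophil content. Among complement genes C7, a part of the membrane attack complex, stood at -0.81 (adjusted p = 0.112). Of 34 mitotic genes 1 was lower (2.94%), the thymidylate synthase gene Tyms (log2 -1.0, adjusted p = 0.0975). Ribosomal protein and oxidative phosphorylation genes had small values mostly of 1 sign, 31 of 32 and 29 of 32 above 0, with medians of 0.105 and 0.123. Of all 14517 tested genes, 7518 were above 0. At an unadjusted p under 0.05, 1 (3.12%) and 2 (6.25%) of these list members were higher and 0 lower. With the lncRNA share as a covariate the medians were -0.078 and -0.019.

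**Figure D5:**
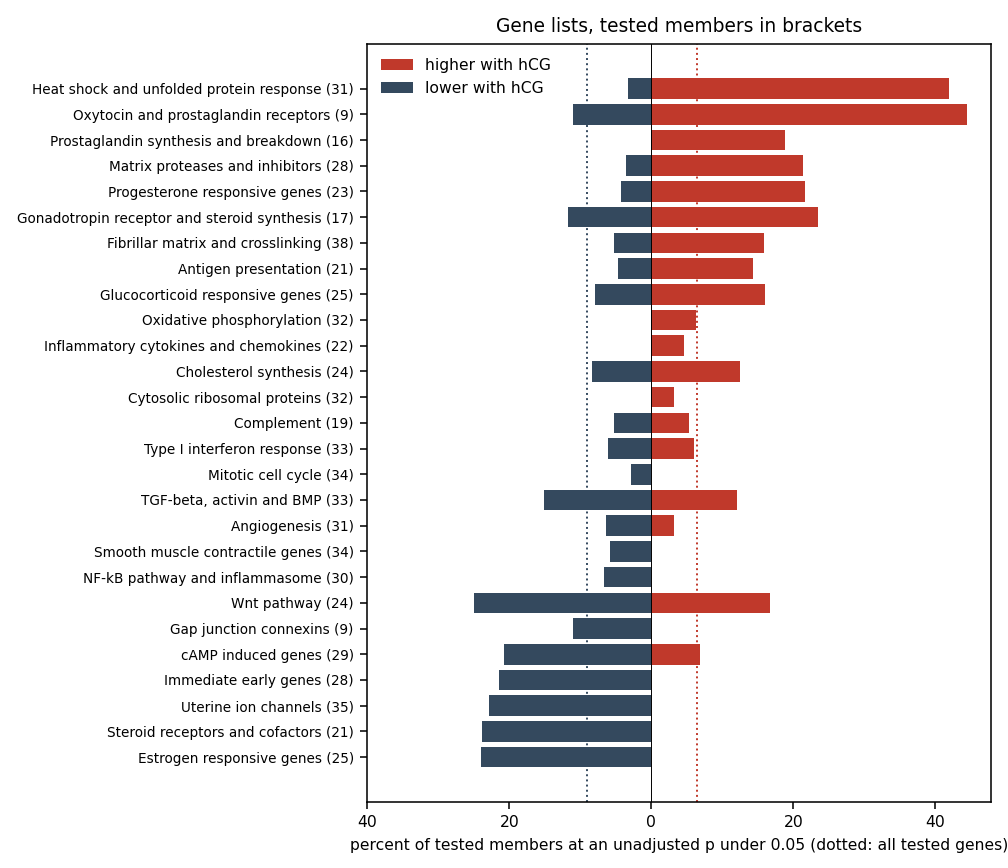
Percent of the tested members of each of 27 gene lists at an unadjusted p under 0.05, higher in hCG myometrium in red to the right and lower in dark to the left, with the number of tested members in brackets and dotted lines at 6.41% and 9.11% for all tested genes. On the higher side the 9 oxytocin and prostaglandin receptor genes reach 44.4% and heat shock and unfolded protein response genes 41.9%. Estrogen-responsive genes reach 24% on the lower side with none higher. The lists were chosen with earlier results of these data known.

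The hCG response of myometrium was then set against that of cervix, in an interaction term over all 40 libraries. Of 15624 genes tested, 55 passed at an adjusted p under 0.05 (0.352%), with 35 where the response of myometrium was higher (0.224%) and 20 where it was lower (0.128%). DESeq2 called 579 of 17653 tested, of which 54 were among the 55, and without the filter on low counts edgeR called 24 of 20906. With the label number of a treatment as a replicate block across the tissues no gene passed, the lowest adjusted p being 0.0666 (3486 genes at an unadjusted p under 0.05), so each tissue difference given here rests on treating the libraries as independent. Neither Slc25a48 (difference of log2 fold changes -0.84, SE 0.52, adjusted p = 0.36) nor Ces1d (0.67, SE 0.43, adjusted p = 0.379) passed, and Ces1d was also higher in hCG cervix (log2 1.06, SE 0.30, adjusted p = 0.0377). The 5 genes of smallest p were Kctd5, Eaf1, Elovl1, Hoxd3os1 and Ifi27l2a. Kctd5, an adaptor of cullin 3 ubiquitin ligase, had a log2 fold change of 0.30 in myometrium and -0.54 in cervix. Eaf1, a partner of the transcription elongation factor ELL, had 0.11 and -0.63, and Elovl1, a fatty acid elongase, 0.08 and -0.79, myometrium before cervix. Ifi27l2a, an interferon-induced gene with close copies that could share reads, had -0.08 in myometrium and 1.95 in cervix. Hoxd3os1, an antisense transcript at the Hoxd cluster, had -0.84 in myometrium and was too low to test in cervix alone.

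Genes described above also passed the test of the difference between tissues in the fit without the replicate block. By the design text's number of mice, cervix and myometrium libraries would in part share animals, which that fit ignores. Manf had a log2 fold change of 0.43 in myometrium and -0.50 in cervix (difference 0.93, SE 0.20, adjusted p = 0.0392). Prr15 had 0.77 in myometrium and -0.46 in cervix (difference 1.24, adjusted p = 0.0469). Il1b, the inflammatory cytokine interleukin 1 beta, had 0.41 in myometrium and 3.53 in cervix (difference -3.10, SE 0.70, adjusted p = 0.041). Hsd17b7 had a difference of 3.82 (adjusted p = 0.0469), for which the myometrium value rests on hCG library 5.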

How the data were processed

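The authors deposited a table of raw counts per gene from strand-specific total RNA libraries (TruSeq), per the labels' protocols. Per the submitters' processing notes, TopHat2 and mouse build GRCm38 (mm10) were used; the sources used here do not give the counting tool, strand setting or annotation, so overlapping, antisense and near-identical genes cannot be told apart. Of 23079 gene identifiers 23008 matched a RefSeq table of GRCm38.p6; the other 71 held 0.197% of counts and were kept. Promoter sequence came from RefSeq, same build.

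Genes were filtered with filterByExpr, scaled by TMM factors and tested by quasi-likelihood in edgeR (robust dispersion), on the 20 myometrium libraries for hCG against PBS and on all 40 for the tissues; Benjamini-Hochberg adjustment ran over all tested genes. CPM values are TMM-scaled over the 20 libraries. SE is the log2 fold change over the square root of F. Members of 27 process lists and 21 marker lists (895 genes, 8 unmatched) and all lists were chosen with earlier results of these data known. Named were the 12 higher and 12 lower genes of smallest p with mean log2 CPM of 0 or more, without predicted models, the panel, up to 3 members per list and 5 genes of the tissue comparison, in part given as counts, and a few are not reported here; other list members at an unadjusted p under 0.05 are named for their list's count. Tools were edgeR 4.0.16 and, for alternatives, DESeq2 1.42.0, sva 3.50.0 and limma 3.58.1 in R 4.3.3; the edgeR fit was checked on simulated data. Counts cover counting error only. The alternatives are given in the closing section.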

Additional observations from a re-analysis of the deposited data

Results flagged for a closer look

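In 14 of 178 combinations of a named gene and a group of 10 libraries, a single library stood apart on the log2 CPM scale by a gap larger than Dixon's 95% critical value allows; chance alone flags about 1 group in 20. In hCG myometrium these were library 5 for Ptgfr (102 CPM), Star (710 CPM) and Hsd17b7 (703 CPM), library 1 for Fbrs (3.10 CPM) and Tgfb1 (1.94 CPM), library 8 for Klf9 (132 CPM), library 4 for Muc4 (56.7 CPM), library 6 for Myh11 (1326 CPM) and library 9 for Slc7a8 (47.1 CPM). In PBS myometrium they were library 8 for Dkk3 (11.8 CPM) and Il1b (0.337 CPM), library 4 for Ptger3 (8.39 CPM) and Tmem52b (0.907 CPM), and library 1 for Thbs2 (164.5 CPM). The 3 values of hCG library 5 stand in the library with the highest sum of ovary markers, 3085 CPM; the part of those cells in the values was not tested.

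For 9 of the genes the test of the difference between tissues passed (edgeR, adjusted p under 0.05) when libraries were treated as independent. With the replicate block no gene passed. The hCG response in myometrium minus that in cervix was 0.75 for Eaf1, 0.88 for Elovl1, -2.82 for Hoxd3os1, 3.82 for Hsd17b7, -2.02 for Ifi27l2a, -3.10 for Il1b, 0.85 for Kctd5, 0.93 for Manf and 1.24 for Prr15, on the log2 scale.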

How the results depend on the processing

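Against 2 called genes, RLE and upper-quartile factors, no filter, 1 CPM in 10 libraries and no robust dispersion also gave 2. DESeq2 gave 400, a fit of all 40 libraries 4, 2 surrogate variables 5, a yolk sac marker score as covariate 5, leaving out the 3 libraries with over 1% of counts from Lars2 gave 1, and an adjusted p under 0.1 gave 161. The count was 0 in limma voom with library quality weights (1837 genes at an unadjusted p under 0.05) and, among alternatives chosen after seeing the data, with the lncRNA share as covariate (1133), without the 8 libraries of high Afp (1098) and without hCG libraries 1 and 5 (1827). Leaving out 1 library at a time gave 1 to 137. The causes were not tested, except that fewer libraries entered where some were left out.

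Label numbers shared by an hCG and a PBS library (8) were not shown to pair them. Correlations of their deviations ran from -0.238 to 0.255, with 3 over 0.1, and 1 pair correlated best with its own number. Such values cannot exclude a link between libraries of the same number. With the number as a replicate block 2 genes were called, 0 of them shared with the fit without the block, and Slc25a48 and Ces1d had adjusted p of 0.106 and 0.137. For the difference between tissues the block gave 0 calls (3486 at an unadjusted p under 0.05, lowest adjusted p 0.0666), DESeq2 gave 579, and no filter on low counts gave 24, against 55.

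For the named genes, 1252 of 1334 values over 15 settings kept direction and side of the threshold, 48 passed newly, 12 no longer passed and 22 changed sign; over left-out libraries 23 of 1780 changed sign. Sign changes (log2) were, under the block, Ptger3 -0.0067, Edn1 0.13, Cxcl1 0.014 and Star -0.157; without the 8 libraries of high Afp, Ptger3 -0.019, Edn1 0.058, Il1b -0.202, Zeb1 -0.071, Hsd17b7 -0.016 and Star -0.319; with the lncRNA covariate, Akr1c18 -0.033, Srd5a1 -0.0298, Zeb2 0.115 and Acta2 -0.173; in limma voom, Srd5a1 -0.016 and Edn1 0.134; without the Lars2 libraries, Srd5a1 -0.0018 and Il1b -0.0024; in DESeq2, Hsd17b7 -0.029 and Star -0.381; without hCG libraries 1 and 5, Hsd17b7 -0.112 and Star -0.348. With 1 library left out the ranges were -0.0812 to 0.121 for Ptger3, -0.0271 to 0.104 for Srd5a1, -0.0884 to 0.051 for Edn1, -0.0267 to 0.093 for Zeb1, -0.0445 to 0.1004 for Acta2, -0.268 to 0.0045 for Mmp9, -0.0399 to 2.63 for Hsd17b7 and -0.401 to 2.09 for Star.

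Depth limits genes such as Lhcgr, which had no count in 6 hCG and 4 PBS libraries.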
